A study of Homo sapiens with 8 samples.

Results

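The genes of the proteasome were followed in HCT-116 cells, an epithelial line from a human colon tumour, profiled on 8 one-colour Agilent arrays. Members were all probes whose gene name in the scanner files begins with PSM, a letter from A to G and a digit, without PSMB8 and PSMB9. They are 71 of the 50599 probes on the array and carry 47 gene names, of which 46 are subunits, activators or assembly factors of the proteasome. The remaining name, PSMC3IP, is a recombination factor that shares only the letters, and it was counted apart. Probes were tested where both arrays of at least 1 group were well above background. This left 64 member probes of 28677 probes tested, and 44 proteasome genes of 15317 genes. PSMB11, the thymus beta subunit, and PSMA8, the testis alpha subunit, had no tested probe, and 4 further dim probes of PSMB7, PSMD3, PSME4 and PSMG4 were not tested. Each gene was represented by its brightest tested probe unless stated otherwise.

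The study compared 4 groups with 2 replicates each, which the paper describes as duplicates. WT cells were the untreated parental line, and WT+NU6102 cells were that line after 24 h in 20 µM NU6102, a purine inhibitor of CDK1 and CDK2. CDK2-/- cells were untreated and carry a deletion of CDK2, the kinase of S phase entry. R50 cells were selected for resistance and kept in 50 µM NU6102. All cells grew in DMEM with 10% FBS. The parental and CDK2-/- lines were bought, and the number of clones behind CDK2-/- and R50 cells and the passage of R50 cells are not given in the sources used here. The labels name no vehicle for the untreated groups.

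Levels are log2 of the background-subtracted spot signal minus the 75th percentile of the array, so a difference of 1 is a doubling, and a level is comparable only within a probe. On each array 32376 to 36206 spots exceeded the local background clearly. Across probes, duplicate arrays correlated with r between 0.994 and 0.996. The CDK2-/- and R50 arrays shared 1 scan and the WT and WT+NU6102 arrays another. The NU6102 effect in parental cells and the comparison of R50 with CDK2-/- cells therefore lie within a scan, while in every other comparison scan and group cannot be told apart. The CDK2 probe at chr12:56365789-56365848 of hg19 had a log2 level of -0.76 on both WT arrays and of -1.56 and -1.51 on the CDK2-/- arrays, and which part of the gene is deleted is not given in the sources used here. Of 7 epithelial marker genes, 6 passed that background test on all 8 arrays and VIL1 on none. Of 9 markers of blood, endothelial and stromal cells, 4 were so on all 8 arrays, with levels from -3.67 to -1.61. RNA per cell was not measured, so a lower level and a smaller share of expressing cells cannot be told apart in these bulk samples.

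The proteasome is the protease that degrades most ubiquitin-tagged proteins of a cell, including cyclins at fixed points of the cell cycle. Its 20S core holds the proteolytic sites in a pair of inner beta rings between outer alpha rings. A 19S cap of ATPase (PSMC) and non-ATPase (PSMD) subunits recognises, deubiquitinates and unfolds the substrate. Alternative caps, the PSME activators, open the core without needing ubiquitin, and dedicated chaperones (PSMG for the core, PSMD5, PSMD9 and PSMD10 for the cap) assemble the particle.

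In WT+NU6102 cells most proteasome genes were higher than in WT cells, by small amounts. Of the 44 genes, 33 rose and 2 fell at an adjusted p under 0.05 (limma, Benjamini-Hochberg over all probes), against 29.1% of all genes higher and 24.1% lower. The median log2 difference was 0.35 over the proteasome genes, 0.04 over all genes and 0.11 over the 8068 genes above the 75th percentile, where all 44 lie. Of those 8068 genes, 3296 were higher and 1744 lower at the same adjusted p. No proteasome gene changed by as much as 1 on the log2 scale. On both WT+NU6102 arrays 36 of the 44 genes were higher than on every other array, an order seen in 30.7% of all genes. Relative to the WT mean, the median gene stood at 0.34 and 0.40 on the WT+NU6102 arrays.

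**Figure D1:**
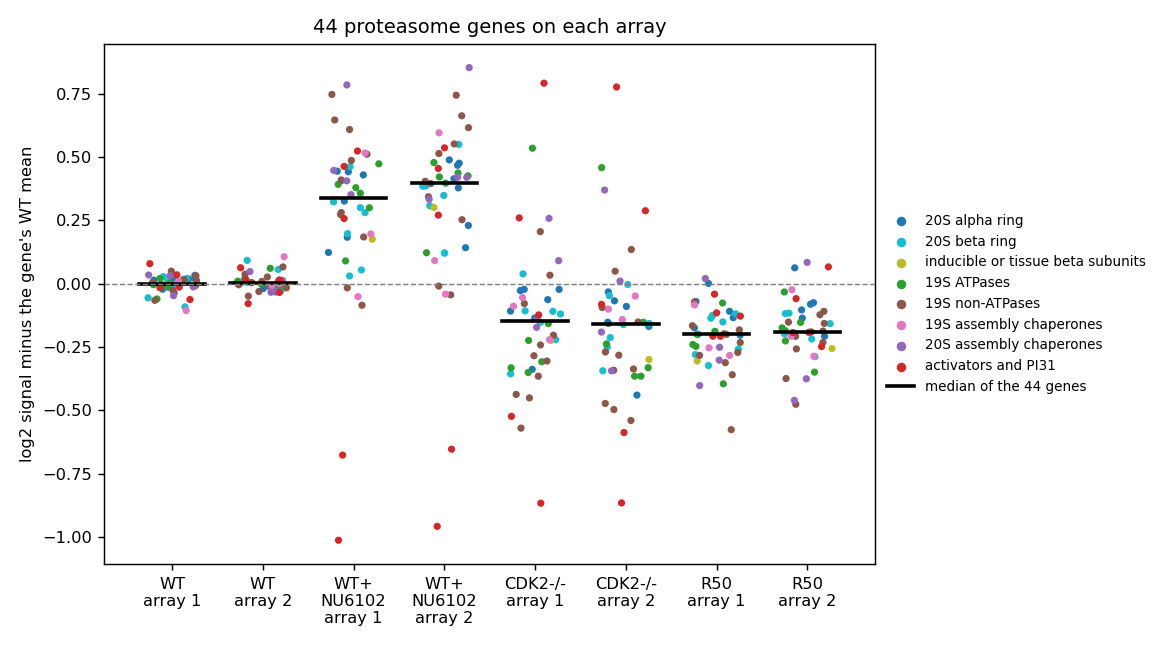
Log2 signal of each of the 44 proteasome genes minus its own WT mean (vertical axis) on each of the 8 arrays (horizontal axis), with points coloured by role and a black line at the median. The median lies at 0.34 and 0.40 on the WT+NU6102 arrays, at -0.15 and -0.16 on the CDK2-/- arrays and at -0.20 and -0.19 on the R50 arrays, and the lowest point on each WT+NU6102 and CDK2-/- array is PSME1.

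The rise with NU6102 ran through nearly every structural part. In the alpha ring, which gates entry to the core, 6 of 7 tested genes rose, with a median of 0.41, and PSMA6 did not pass the test (0.13, adjusted p = 0.106). In the constitutive beta ring 4 of 7 rose, with a median of 0.32. PSMB1 was not among them at 0.08, while its other tested probe was called higher at 0.37. Of the 6 ATPases, 5 rose, with a median of 0.40. Of the 11 non-ATPase cap subunits, 9 rose, with a median of 0.41, while PSMD4, a ubiquitin receptor, and PSMD7, the partner of the deubiquitinase PSMD14, had differences of -0.01 and -0.06. All 4 core chaperones rose, with a median of 0.42. Among the 3 cap chaperones only PSMD9 did (0.56), with PSMD5 at 0.14 and PSMD10 at -0.05. The other of the 2 tested PSMD9 probes was at -0.11 and did not pass the test.

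The 3 constitutive subunits that carry the active sites did not respond to the same degree. PSMB5, the chymotrypsin-like subunit (probe at chr14:23495485-23495544 of hg19), had levels of 5.40 and 5.40 on the WT arrays, 5.68 and 5.79 with NU6102, 5.44 and 5.40 in CDK2-/- and 5.12 and 5.20 in R50 cells. The NU6102 arrays were the highest and the R50 arrays the lowest, without overlap, and CDK2-/- lay on WT. The difference with NU6102 was 0.33 ± 0.06 (SE, n = 2 arrays per group, limma adjusted p = 0.00645). PSMB7, the trypsin-like subunit, rose by 0.51 ± 0.05 (limma adjusted p = 0.000937). PSMB6, the caspase-like subunit, stood at 5.67 and 5.61 in WT cells and at 5.69 and 5.76 with NU6102, and its difference of 0.09 did not pass the test, with a 95% interval from -0.05 to 0.22.

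The largest rises with NU6102 were those of PSMG3, PSMD12, PSMD3 and PSMD6. PSMG3, which pairs with PSMG4 to help build the alpha ring, had levels of 2.13 and 2.22 in WT cells, 2.96 and 3.03 with NU6102, 2.43 and 2.54 in CDK2-/- and 1.87 and 1.98 in R50 cells. No groups overlapped, and the order was WT+NU6102, CDK2-/-, WT, R50. The rise with NU6102 was 0.82 ± 0.07, a fold of 1.76 (limma adjusted p = 0.000585).

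PSMD12, a subunit of the lid of the cap, had levels of 4.02 and 4.0 in WT cells, 4.76 and 4.75 with NU6102, 3.44 and 3.47 in CDK2-/- and 3.74 and 3.82 in R50 cells. It was highest with NU6102 and lowest in CDK2-/- cells, again with no overlap between groups. Its rise with NU6102 was 0.75 ± 0.05, a fold of 1.68 (limma adjusted p = 0.000292). The other lid subunits PSMD3 and PSMD6 rose by 0.65 and 0.61. Of the 44 representative probes 11 span more of hg19 than their own 60 bases and so cross a splice junction. The sequences of 5 of them are shown, in lower case, because they carried the values of PSMD12, PSMD3, PSMD11, PSMC5 and PSME1, each described by name here (PSMD12, chr17:65337126-65338318, minus strand; PSMD3, chr17:38152574-38153624, plus strand; PSMD11, chr17:30807187-30807537, plus strand; PSMC5, chr17:61907288-61907530, plus strand; PSME1, chr14:24606378-24606552, plus strand).
PSMD12: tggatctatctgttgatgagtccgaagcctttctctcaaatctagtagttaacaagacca
PSMD3: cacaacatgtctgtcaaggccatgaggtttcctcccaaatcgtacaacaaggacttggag
PSMD11: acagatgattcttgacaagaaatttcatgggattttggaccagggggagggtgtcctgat
PSMC5: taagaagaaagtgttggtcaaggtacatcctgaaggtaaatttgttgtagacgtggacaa
PSME1: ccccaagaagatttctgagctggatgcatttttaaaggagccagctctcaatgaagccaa

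The exceptions to the rise were PSME1 and PSME2, the alpha and beta subunits of the 11S activator PA28, which interferon gamma is known to induce. PSME1 had levels of 1.54 and 1.38 on the WT arrays, 0.44 and 0.50 with NU6102, 0.59 and 0.59 in CDK2-/- cells and 1.34 and 1.27 in R50 cells. The treated and knockout arrays were all below the WT and R50 arrays, and R50 lay just under WT. The difference was -0.99 ± 0.07 with NU6102 (fold of 0.505, limma adjusted p = 0.00033) and -0.87 ± 0.07 in CDK2-/- cells (fold of 0.549, limma adjusted p = 0.000731). In R50 cells it was -0.15, with a 95% interval from -0.33 to 0.02, and did not pass the test.

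PSME2, with its probe at chr14:24612577-24612636 of hg19, had levels of 6.95 and 6.98 in WT cells, 6.29 and 6.31 with NU6102, 6.44 and 6.38 in CDK2-/- and 6.76 and 6.77 in R50 cells. The order was WT, R50, CDK2-/-, WT+NU6102, with no overlap between groups. It fell by 0.67 ± 0.05 on the log2 scale with NU6102 (limma adjusted p = 0.000335) and by 0.56 ± 0.05 in CDK2-/- cells (limma adjusted p = 0.00089). Its difference in R50 cells was -0.20 (limma adjusted p = 0.0342), a call that was lost when any 1 of the 8 arrays was left out.

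PSMB10, the inducible counterpart of PSMB7, did not move with PSME1 and PSME2 under NU6102. Its levels were 4.64 and 4.65 in WT cells, 4.82 and 4.95 with NU6102, 4.42 and 4.35 in CDK2-/- and 4.34 and 4.39 in R50 cells. The treated arrays were above WT, and the CDK2-/- and R50 arrays, which overlapped each other, below it. The differences were 0.24, -0.26 and -0.28 (limma adjusted p = 0.0257, 0.0268 and 0.0289), and each was lost when single arrays were left out: either WT array or WT+NU6102 array 2 for the first, any WT or CDK2-/- array for the second and any array but the WT+NU6102 ones for the third.

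The other inducible subunits stand outside the members and were measured for comparison. PSMB9, the inducible counterpart of PSMB6, had levels of 1.95 and 1.84 in WT cells, 0.14 and 0.18 with NU6102, -0.25 and -0.22 in CDK2-/- and 1.25 and 1.26 in R50 cells. It fell by 1.73 with NU6102, fell by 2.13 in CDK2-/- cells and fell by 0.63 in R50 cells, all past the test. PSMB8 was well above background on 2 of 8 arrays and was not tested. In a list of 12 interferon and antigen presentation genes, PSMB8 and PSMB9 included, all 11 tested genes fell with NU6102 (24.1% of all genes) and 10 fell in CDK2-/- cells (16.5% of all genes), with medians of -0.87 and -0.74. In R50 cells 3 fell and 1 rose, against 15.6% of all genes lower and 12.2% higher, with a median of -0.22. These comparisons share the WT arrays.

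The promoters of PSME1, PSME2 and PSMB10 are shown because these members are induced by interferon elsewhere and moved differently here, and that of PSMD12 because it was among the largest rises. RefSeq gives promoters on GRCh38.p14 for 40 of the 46 proteasome genes. Each stretch below runs from 180 bases before the start site to 20 after it, 5′ to 3′ on the strand of the gene, and capitals mark GAAANNGAA, the core of an interferon response element, and TGACNNNGC, the core of an antioxidant response element, on either strand. The positions are chr14:24136014-24136213 (plus strand) for PSME1, chr14:24146591-24146790 (minus strand) for PSME2, chr16:67936831-67937030 (minus strand) for PSMB10 and chr17:67366558-67366757 (minus strand) for PSMD12.
PSME1: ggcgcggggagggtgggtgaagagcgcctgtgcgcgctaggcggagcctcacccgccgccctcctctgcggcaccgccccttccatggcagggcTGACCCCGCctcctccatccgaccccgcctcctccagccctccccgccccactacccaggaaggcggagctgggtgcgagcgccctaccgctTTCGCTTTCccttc
PSME2: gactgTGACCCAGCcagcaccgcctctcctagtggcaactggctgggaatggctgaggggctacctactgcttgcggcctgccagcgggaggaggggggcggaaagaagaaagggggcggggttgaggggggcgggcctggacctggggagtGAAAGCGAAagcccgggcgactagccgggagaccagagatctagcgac
PSMB10: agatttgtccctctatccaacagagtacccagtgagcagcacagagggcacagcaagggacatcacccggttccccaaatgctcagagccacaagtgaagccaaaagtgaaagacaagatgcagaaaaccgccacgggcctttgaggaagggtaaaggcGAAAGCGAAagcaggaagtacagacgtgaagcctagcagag
PSMD12: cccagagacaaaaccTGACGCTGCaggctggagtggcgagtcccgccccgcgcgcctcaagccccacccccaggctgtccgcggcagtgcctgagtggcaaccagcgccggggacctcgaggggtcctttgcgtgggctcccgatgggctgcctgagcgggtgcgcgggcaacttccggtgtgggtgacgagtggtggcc

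GAAANNGAA occurred in the whole RefSeq promoters of 7 of the 40 genes (17.5%), against 8.29% of 27305 promoters of all genes. These were PSMA4, PSMB4, PSMB10, PSMC2, PSME1, PSME2 and PSMG4. PSMB10, PSME2 and PSMG4 hold the same letters, GAAAGCGAA, and PSME1 holds them on the other strand, TTCGCTTTC. The 4 promoters therefore share these letters. By their brightest probes PSME1 and PSME2 fell under NU6102, and PSMB10 and PSMG4 rose. The PSMB10 call was lost when single arrays were left out, and the other tested PSMG4 probe was called lower, at -0.77. Whether the letters bear on these differences was not tested. TGACNNNGC occurred in 12 of the 40 promoters (30.0%), against 13.6% of all promoters, and they include PSMC4, PSMD1, PSMD3, PSMD12, PSME1, PSME2, PSME4 and PSMG1. The ETS letters CCGGAAG were found in 13 of 40 (32.5%) against 10.7% of all, and CCAAT in 18 of 40 (45.0%) against 35.7%. A match to such short letters describes the sequence and says nothing of binding.

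By their brightest probes the remaining activators and the inhibitor PI31 rose with NU6102. For PSME4 the 2 tested probes were called in opposite directions, at 0.26 for the brighter and -0.54 for the dimmer. PSME3, the nuclear PA28 gamma, had levels of 2.83 and 2.95 in WT cells, 3.35 and 3.35 with NU6102, 3.15 and 3.18 in CDK2-/- and 2.68 and 2.64 in R50 cells. The R50 arrays were below and the treated and knockout arrays above WT. The rises were 0.46 with NU6102 and 0.27 in CDK2-/- cells (limma adjusted p = 0.00189 and 0.0185), the second of which was lost without WT array 1 or without either CDK2-/- array. By its brightest probe PSMF1, which encodes PI31, rose by 0.53 with NU6102. That probe was at -0.10 in CDK2-/- and 0.01 in R50 cells, neither past the test. The 4 tested PSMF1 probes ran from 0.09 to 0.53 with NU6102, with 3 called higher. In CDK2-/- cells they ran from -0.10 to 0.32, with 1 called higher. In R50 cells they ran from -0.29 to 0.14, with 1 called lower.

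**Figure D2:**
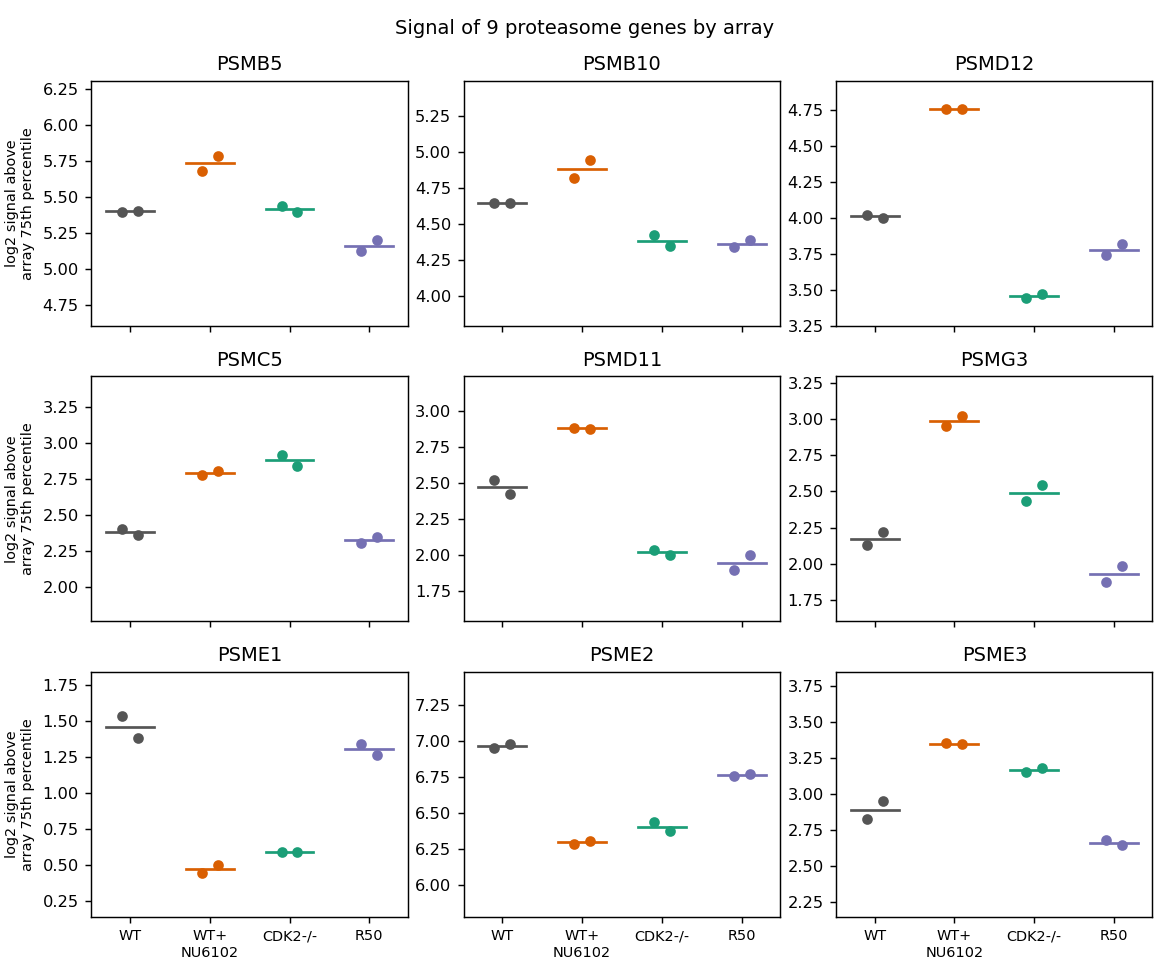
Log2 signal above the array's 75th percentile (vertical axis, each panel spanning the same range) for 9 proteasome genes in the 4 groups (horizontal axis), with a point per array and a line at the mean of the 2 arrays. PSME1 and PSME2 are low with NU6102 and in CDK2-/- cells, whereas PSMC5, PSMG3 and PSME3 are above WT in both.

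In CDK2-/- cells the proteasome genes were more often lower than higher than in WT cells. Of the 44 genes, 18 fell and 4 rose, against 16.5% of all genes lower and 19.6% higher. Of the 8068 genes above the 75th percentile, 1552 were lower and 1678 higher. The median difference of the 44 genes was -0.16, compared with 0.02 over all genes. Leaving out 1 array at a time gave 12 to 17 genes lower and 2 to 4 higher, with 2 higher without WT array 1 or CDK2-/- array 2. The comparison crosses the scans, and whether the scan moved these values was not tested.

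Most of the falls in CDK2-/- cells were in the 19S cap. Among the non-ATPases 7 of 11 fell, with a median of -0.28, and among the ATPases 4 of 6 fell, also with a median of -0.28. In the alpha ring only PSMA6 fell, and in the beta ring PSMB1 and PSMB2. After PSME1 and PSME2 the largest fall was that of PSMD12, at -0.56 ± 0.05 (limma adjusted p = 0.00105). PSMD14, the deubiquitinase of the lid, had levels of 5.18 and 5.15 in WT cells, 5.68 and 5.68 with NU6102, 4.71 and 4.67 in CDK2-/- and 4.96 and 4.96 in R50 cells. Its groups did not overlap, with CDK2-/- the lowest, and the difference was -0.47 ± 0.04 (limma adjusted p = 0.00129). A second PSMD14 probe gave -0.44.

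PSMA6, an alpha ring subunit, was at 5.97 and 5.99 in WT cells, 6.10 and 6.12 with NU6102, 5.64 and 5.54 in CDK2-/- and 5.98 and 6.04 in R50 cells. The CDK2-/- arrays were the lowest, the R50 arrays overlapped WT and the treated arrays lay just above it. The difference in CDK2-/- cells was -0.39 ± 0.06 (limma adjusted p = 0.00509).

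The 4 genes higher in CDK2-/- cells were PSME4, PSMC5, PSMG3 and PSME3. PSMC5, an ATPase of the cap, was at 2.40 and 2.36 in WT cells, 2.77 and 2.80 with NU6102, 2.92 and 2.84 in CDK2-/- and 2.30 and 2.35 in R50 cells. The treated and knockout arrays were above all WT and R50 arrays. Its rise in CDK2-/- cells was 0.50 ± 0.05 (limma adjusted p = 0.00174), while the 5 other ATPases had differences from -0.36 to -0.15. PSMG3 rose by 0.31 (limma adjusted p = 0.024), a call that was lost without either WT array or without CDK2-/- array 2.

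PSME4 encodes PA200, a large nuclear activator known from DNA repair and spermatogenesis. Its brighter probe, at chr2:54092559-54092618 of hg19 on the minus strand, had levels of 0.35 and 0.28 in WT cells, 0.57 and 0.59 with NU6102, 1.11 and 1.09 in CDK2-/- and 0.19 and 0.26 in R50 cells. CDK2-/- was the highest group and R50 lay just under WT. Its rise in CDK2-/- cells was 0.78 ± 0.05, a fold of 1.72 (limma adjusted p = 0.000394).

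A second tested PSME4 probe lies at chr2:54091225-54091284, nearer the 3′ end on the minus strand. Its levels were -1.66 and -1.69 in WT cells, -2.18 and -2.24 with NU6102, -0.22 and -0.14 in CDK2-/- and -1.53 and -1.58 in R50 cells. It rose by 1.49 ± 0.05 in CDK2-/- cells, a fold of 2.82 (limma adjusted p = 6.94e-05). The probes moved the same way there, but with NU6102 the brighter one rose by 0.26 and the dimmer one fell by 0.54, both past the test (limma adjusted p = 0.009 and 0.000879). PSMG4 was the other gene whose tested probes were called in opposite directions with NU6102, at 0.43 for the brighter probe and -0.77 for a probe well above background on 2 of 8 arrays. Of the 14 genes with several tested probes, no further gene had probes called in opposite directions in that comparison. The differences of the 4 tested PSMD5 probes ran from 0.13 to 1.39, and only the one at 1.39, a dim probe with levels of -4.13 and -4.36 in WT cells, passed the test.

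**Figure D3:**
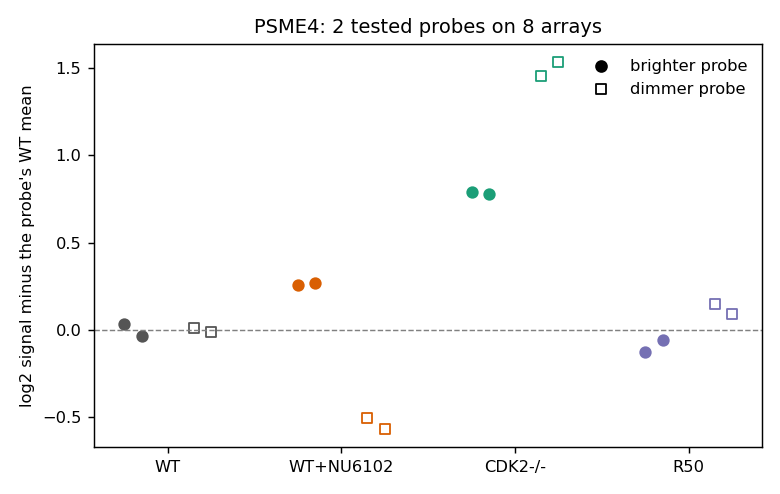
Log2 signal of the 2 tested PSME4 probes minus each probe's own WT mean (vertical axis) in the 4 groups (horizontal axis), with a point per array, filled for the brighter and open for the dimmer probe. Both probes are above WT in CDK2-/- cells, by 0.78 and 1.49, and they part with NU6102, at 0.26 and -0.54.

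R50 cells had no proteasome gene higher than WT cells at an adjusted p under 0.05, and 19 of 44 lower, against 12.2% of all genes higher and 15.6% lower. Of the 8068 genes above the 75th percentile, 973 were higher and 1629 lower. At an unadjusted p under 0.05 limma had 0 proteasome genes higher and 32 lower. The median difference was -0.19, compared with -0.04 over all genes and -0.06 over the brighter ones. The number of genes called was unstable. It was 3 without R50 array 1, 5 and 4 without WT array 1 and 2, 7 without R50 array 2, 9 without either CDK2-/- array and 10 without either WT+NU6102 array, while the median stayed between -0.20 and -0.19. The comparison crosses the scans.

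PSMD11, a lid subunit, showed the largest fall in R50 cells. Its levels were 2.53 and 2.43 in WT cells, 2.89 and 2.88 with NU6102, 2.04 and 2.00 in CDK2-/- and 1.90 and 2.00 in R50 cells. The R50 and CDK2-/- arrays met at 2.00, and all 4 lay below WT. The difference in R50 cells was -0.53 ± 0.06, a fold of 0.694 (limma adjusted p = 0.00439). PSMG1, a core chaperone that pairs with PSMG2, was at 5.17 and 5.19 in WT cells, 5.59 and 5.60 with NU6102, 5.27 and 5.19 in CDK2-/- and 4.78 and 4.72 in R50 cells. It was low in R50 cells alone, with a difference of -0.43 ± 0.05 (limma adjusted p = 0.00508).

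PSMC4, an ATPase, and PSMD1, a scaffold of the base of the cap, followed at -0.37 each. The calls of PSMD11, PSMG1 and PSMD1 held without any 1 array, while that of PSMC4 was lost without R50 array 1. By role, 6 of 11 non-ATPases, 3 of 6 ATPases and 3 of 7 beta subunits were lower in R50 cells. So were 2 of 4 core chaperones and 1 of 7 alpha subunits, against 15.6% of all genes. The medians lay closer together than these unstable counts for the rings, at -0.14 for alpha and -0.17 for beta subunits. They were -0.20 for non-ATPases, -0.20 for ATPases and -0.28 for core chaperones. Of the active-site subunits, PSMB5 and PSMB6 had differences of -0.24 and -0.23 (limma adjusted p = 0.0393 and 0.0328), and PSMB7 had a difference of -0.13 that did not pass the test. The PSMB6 call was lost in all 8 fits that left out an array, and that of PSMB5 without any WT, CDK2-/- or R50 array.

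**Figure D4:**
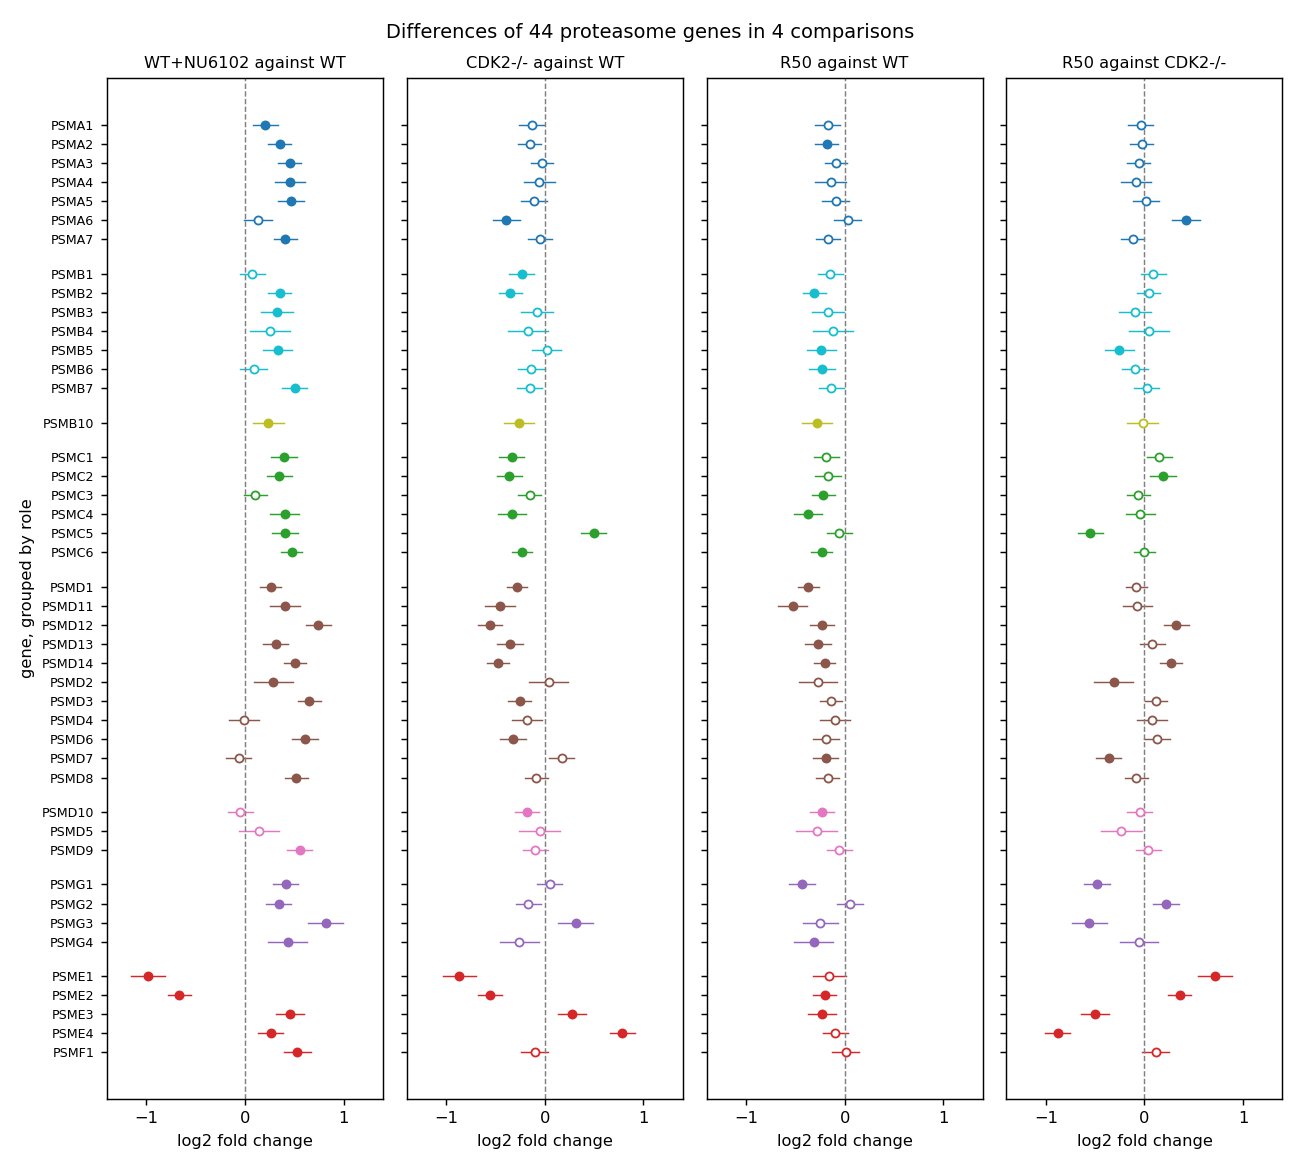
Log2 fold change with its 95% interval (horizontal axes) of each of the 44 proteasome genes (vertical axis, grouped and coloured by role) in 4 comparisons, with filled points where the adjusted p was under 0.05. Filled points lie mostly to the right for WT+NU6102 (33 of 44) and to the left for R50 against WT (19 of 44), with PSME1 furthest to the left for WT+NU6102 and CDK2-/-.

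Within the scan that held both lines, R50 and CDK2-/- cells differed in 15 proteasome genes and the median difference was -0.033. In R50 cells 7 genes were higher (15.9%) and 8 lower (18.2%), against 16.9% of all genes higher and 24.3% lower. Neither share exceeded that of all genes, whose median was -0.07. The 4 highest were PSME1 (0.71), PSMA6 (0.42), PSME2 (0.36) and PSMD12 (0.32). The 4 lowest were PSME4 (-0.88), PSMG3 (-0.56), PSMC5 (-0.55) and PSME3 (-0.50). Their differences between CDK2-/- and WT cells, given above for each, rest on the same CDK2-/- arrays. The sign of the median depended on the scaling, at 0.030 after quantile normalization.

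R50 cells in 50 µM and WT cells after 24 h in 20 µM NU6102 differ in line, dose and time, and their arrays were scanned separately. Of the 44 genes, 39 were lower and 2 higher in R50 cells, against 34.1% of all genes lower and 26.1% higher, with a median of -0.56. Of the 8068 genes above the 75th percentile, 3733 were lower and 1862 higher. The 2 higher proteasome genes were PSME1 (0.83) and PSME2 (0.46). By the brightest probes PSMG3 was the single gene past a log2 difference of 1, at -1.07. The 4 tested PSMD5 probes ran from -1.58 to -0.19, with 3 called lower. Those of PSME4 were called in opposite directions, at -0.36 and 0.66.

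Over the 4 groups together, 33 of the 63 tested proteasome probes passed the F-test at an adjusted p under 0.001, the threshold of the study's methods, against 21.2% of all probes. Without any 1 array the number dropped to between 1 and 4. The smallest adjusted p values were those of the dimmer PSME4 probe (4.1e-05) and of PSMD12 (9.2e-05), both by limma. PSMC3IP, the namesake outside the proteasome, rose by 0.89 with NU6102 (limma adjusted p = 0.0013).

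Partners and regulators of the proteasome were counted in a list of 24 genes, of which 23 were tested. With NU6102 15 rose, against 29.1% of all genes, and the median difference was 0.28. PAAF1, which binds cap ATPases during assembly, had the largest rise at 0.93, and AKIRIN2, needed for import of the proteasome into the nucleus, the ubiquitin shuttle UBQLN1 and the ubiquitin ligase UBE3C each rose by 0.64. NFE2L1, the transcription factor known to drive proteasome genes when the enzyme is impaired, was at 3.48 and 3.51 in WT cells, 3.92 and 3.88 with NU6102, 3.37 and 3.38 in CDK2-/- and 3.65 and 3.60 in R50 cells. It rose with NU6102 by 0.41 (limma adjusted p = 0.0014), and its differences of -0.12 in CDK2-/- and 0.13 in R50 cells did not pass the test. The probe taken for NFE2L2, a related factor, was not well above background on any array, so the gene was not tested and its level is not known.

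In CDK2-/- cells 8 of the 23 partners fell and 1 rose, against 16.5% of all genes lower and 19.6% higher, with a median of -0.11. The one that rose was UBQLN2, another shuttle, at 0.56. In R50 cells 4 of 23 fell (17.4%), close to the 15.6% of all genes, with a median of -0.14. UCHL5, a deubiquitinase of the cap, had the lowest difference, at -0.55 (limma adjusted p = 0.0016). Between R50 and CDK2-/- cells 3 partners were higher (13.0%) and 5 lower (21.7%), near the 16.9% and 24.3% of all genes. Of the 11 interferon and antigen presentation genes 10 were higher in R50 cells, against the same 16.9%.

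**Figure D5:**
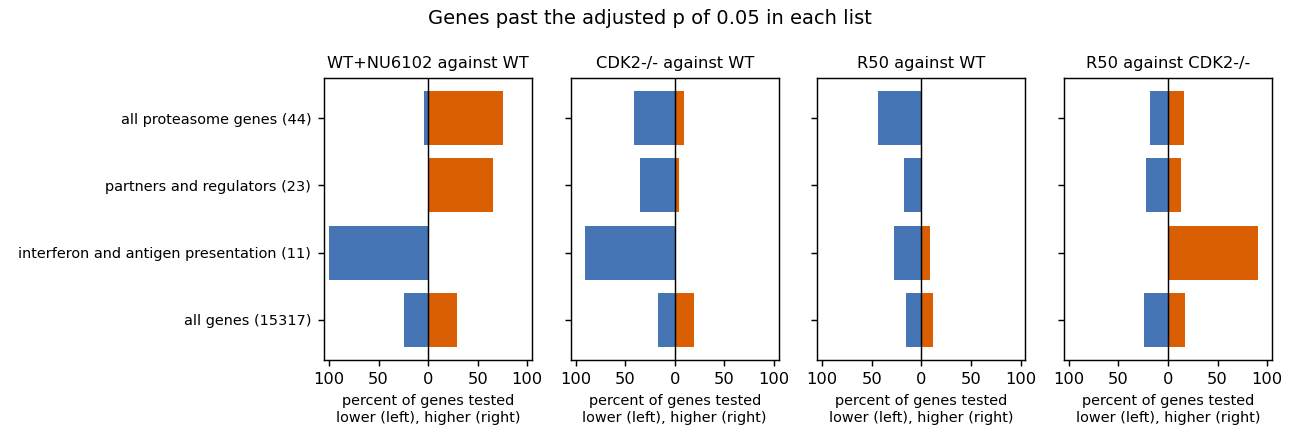
Percent of the tested genes of each list (number in brackets) that were higher (right, orange) or lower (left, blue) at an adjusted p under 0.05 in 4 comparisons. With NU6102 the proteasome genes (33 of 44 higher) and partners (15 of 23 higher) point right and the interferon and antigen presentation genes (11 of 11 lower) left.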

How the data were processed

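RNA of 8 HCT-116 samples was labelled with Cy3 and hybridised to Agilent arrays of 60-base probes. The authors deposited, for each spot, a scanner intensity (Agilent Feature Extraction 11.5.1.1), corrected for background within its array but not scaled between arrays. The WT and WT+NU6102 files carry hg19 positions. A table of log2 values that the authors made with GeneSpring GX holds the log2 signal less 1 constant per array, centred on each probe's median. The build behind the other files is not given in the sources used here.

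Control spots and outlier spots were left out, log2 intensity was reduced by each array's 75th percentile, and spots of a probe were averaged (R 4.3.3, data.table version 1.17.8). Genes carry the file names and were counted where RefSeq (GRCh38.p14) knows the name. Limma 3.58.1 fitted the 4 groups together. Contrasts were called at a Benjamini-Hochberg adjusted p under 0.05 over 28677 probes and the F-test at 0.001, two-sided. The fit was tested on simulated data with planted changes larger than most differences of the proteasome genes. Its recovery of differences as small as most of those reported here was not tested. The number of arrays limits the precision.

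Members, role lists and related lists were chosen with earlier results of these data known. Named genes are PSMB5, PSMB6, PSMB7, PSMB10 and PSME1 to PSME4, the 4 highest and 4 lowest called members of each comparison with WT and of R50 against CDK2-/-, and genes whose probes were called in opposite directions, with others where they stood outside their role group. Partner genes were named after their values were seen. Promoters and motifs were read with Python 3.11.15, and figures drawn with matplotlib 3.10.9. Other settings tried were quantile normalization, normexp on the raw signals (offset 50), both looser and tighter filters for dim probes, the GeneSpring table, a trend in the prior variance, other thresholds, the mean of a gene's probes, a replicate block, separate fits of the compared groups, plain tests per probe and the omission of each array.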

Additional observations from a re-analysis of the deposited data

How the results depend on the processing

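The groups hold 2 arrays each, and the spread was estimated over the 4 groups together. Replicate numbers did not pair the samples: correlations of same-numbered deviations lay between -0.03 and 0.05. With the replicate block, 6 proteasome probes passed the F-test in place of 33, 14 genes in place of 19 were lower in R50 than in WT cells, and the block moved no other count of calls by over 1.5 times. For the F-test the number was 17 after quantile normalization, 1 without the filter on dim probes, 50 with a trended prior, 12 with a plain ANOVA, 55 at an adjusted p under 0.05 and between 1 and 4 when 1 array was left out. The median difference between R50 and CDK2-/- cells turned from -0.033 to 0.030 after quantile normalization, and the other medians then stood at 0.26 (WT+NU6102 against WT), -0.17 (CDK2-/- against WT), -0.13 (R50 against WT) and -0.39 (R50 against WT+NU6102). The 19 genes lower in R50 than in WT cells became 9 after quantile normalization, 3 without the filter, 3 at an adjusted p under 0.01, 3 with only the groups compared in the fit, 0 with a plain two-sample test per probe (27 unadjusted) and 32 with a trended prior. That plain test, adjusted, gave for WT+NU6102 20 genes higher, for CDK2-/- 1 higher and 5 lower, and for R50 against CDK2-/- 1 higher and 4 lower. The 4 genes higher in CDK2-/- cells were 2 without the filter, 2 at an adjusted p under 0.01 and 2 with only the groups compared, and the 7 higher in R50 than in CDK2-/- cells were 4 without the filter. At a minimum absolute log2 fold change of 1, every count became 0 except 1 for genes lower in R50 than in WT+NU6102. When 1 array was left out, counts ran from 29 to 32 higher and stayed at 2 lower for WT+NU6102, from 2 to 4 higher and 12 to 17 lower for CDK2-/-, stayed at 0 higher and ran from 3 to 10 lower for R50, from 5 to 7 higher and 6 to 8 lower for R50 against CDK2-/-, and stayed at 2 higher and ran from 36 to 39 lower for R50 against WT+NU6102. Of 100 values of named genes, none changed sign past the test in the settings where single genes were compared. The mean of a gene's probes was not among those settings. With that mean, 3 genes in place of 2 were lower with NU6102, and 3 in place of 2 were higher in R50 than in WT+NU6102 cells. The cause of these changes was not tested, except that a left-out array means fewer samples and no filter more probes tested.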
